A study of Mus musculus with 15 samples.

Results

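Transcripts of the cytosolic ribosomal protein genes were measured by RNA sequencing in the quadriceps of DBA/2J-mdx males, which lack dystrophin in muscle and model Duchenne muscular dystrophy. A gene was a member if its symbol began with Rpl or Rps and a digit, or was Rpsa, Rplp0, Rplp1 or Rplp2. Ribosomal S6 kinase genes (9 rows), Rps19bp1 (1 row) and symbols marked as pseudogenes (9 rows) were left out of the 103 rows that began this way, which gave 84 members among 14272 named genes. They comprised 31 proteins of the small subunit, 43 core proteins of the large subunit, 3 proteins of the stalk, 6 paralogues or look-alikes (Rpl3l, Rpl7l1, Rpl22l1, Rpl36al, Rps27l and Rps4y2) and 1 other annotated copy (Rps3a2). All 77 standard proteins of the list had a row, and all 84 members passed the filter on low values.

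All mice carried the same mdx background, so a comparison with muscle that has dystrophin was not part of the design. Vehicle mice received DMSO by intraperitoneal injection 7 times a week. Weekly mice were given 1 mg/kg of the synthetic glucocorticoid prednisone on 1 day a week and vehicle on the other 6. Daily mice were given the same prednisone dose 7 times a week. The labels give the age as about 7 months in the sample descriptions and as 6 months in the protocol. Each group held 5 libraries, and the labels do not say whether these came from separate animals, so p-values measure the spread between libraries, which may be technical.

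A ribosome is built from a small subunit, which reads the mRNA, and a large subunit, which joins amino acids. Each subunit combines ribosomal RNA with proteins that are needed in near-equal amounts, so the genes for these proteins are usually expressed together. Most of their mRNAs begin with a C followed by a run of pyrimidines, the 5′ terminal oligopyrimidine (TOP) motif, through which mTOR complex 1 and Larp1 control their translation. In skeletal muscle the number of ribosomes helps to set how much protein a fibre can make, and glucocorticoids given every day are known to cause muscle wasting.

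The promoter table of RefSeq (GRCm38.p6) matched 62 of the 84 members. A run of C followed by at least 4 C or T, on the sense strand within 20 bases of the annotated start, was present in 45 of these 62 (72.6%), against 47.0% of the tested genes and 46.1% of all genes in the table. The windows below run from 30 bases before the start to 20 from it, 5′ to 3′ on the gene's strand, with that run in capitals. Rps18, Rps27 and Rps6 encode small subunit proteins and Rplp2 a stalk protein, and they show the run at the start. Rpl24 and Rpl7l1 are shown because their transcripts went against the others in the results that follow, and neither held such a run within 20 bases of the start.
Rps18, chr17:33955646-33955695, minus strand: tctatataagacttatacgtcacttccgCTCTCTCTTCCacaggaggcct
Rps27, chr3:90213629-90213678, minus strand: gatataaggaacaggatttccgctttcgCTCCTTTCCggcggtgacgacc
Rps6, chr4:86857348-86857397, minus strand: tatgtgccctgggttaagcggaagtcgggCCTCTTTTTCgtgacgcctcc
Rplp2, chr7:141447621-141447670, plus strand: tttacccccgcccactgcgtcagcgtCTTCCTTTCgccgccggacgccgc
Rpl24, chr16:55966245-55966294, plus strand: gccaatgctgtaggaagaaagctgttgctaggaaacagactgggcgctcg
Rpl7l1, chr17:46782637-46782686, minus strand: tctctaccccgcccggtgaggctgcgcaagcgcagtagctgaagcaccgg
The run was found in 23 of 33 matched members called lower in daily against vehicle (69.7%) and in 22 of 29 not called (75.9%). Under the deposited scaling 83 of the 84 members had a negative change there, so members not called mostly fell too. The split therefore cannot show whether the run goes with the response.

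Other letters were searched on both strands from 250 bases before to 50 bases after the start. The ETS letters CCGGAAG were present in 38.7% of the 62 matched members and in 17.3% of tested genes (9.12% of all genes in the table). The YY1 letters AAGATGG, whose first 3 bases can overlap the last 3 of CCGGAAG, were present in 14.5% of members and in 7.23% of tested genes (6.48% of all). The GC box GGGCGG was about as frequent in members (61.3%) as in tested genes (63.1%; 35.9% of all). TATAAA was in 9.68% of members against 7.33% of tested genes (14.2% of all), and CACGTG in 8.06% against 10.2% (7.24% of all). A glucocorticoid response element, searched as ACA and TGT set 3 bases apart and flanked by G and C each 1 base further out, was in 0 of 62 member windows, 0.34% of tested genes and 0.463% of all.

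Levels are given in CPM, reads of a gene scaled to a common library total. Recovered depth ran from 2780768 to 11052552 reads per library, and 3 reads corresponded to 0.271 to 1.08 CPM. A pair of libraries stood apart from their groups. Weekly 4 was the shallowest, had 0.567% of its reads in the mitochondrial ribosomal RNA mt-Rnr2 against 6.22% to 9.41% in the other weekly libraries, and summed to 27500 CPM over fibroblast and matrix markers and to 3520 CPM over macrophage markers, where no other weekly library passed 3980 and 661 CPM. In daily 3, Gm26924 took 20.5% and Lars2 7.79% of the reads, against at most 3.02% and 1.61% in the other daily libraries, which lowers the share left for all other genes. The spread between libraries (biological coefficient of variation) came to 3.57% in vehicle, 9.41% in daily and 28.5% in weekly. Values are therefore given under the deposited scaling and under TMM scaling, which sets libraries level on the bulk of their genes. Myofibre markers summed to 271000 to 277000 CPM in vehicle; the weekly range was 225000 to 313000 CPM and the daily range 161000 to 255000 CPM, and all 15 were detected in every library.

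In vehicle muscle the members together held 0.73% to 0.775% of the reads. Rpl4, which lines part of the peptide exit tunnel, had the highest mean level of the members at 258 CPM, and Rps4y2 the lowest at 1.77 CPM. The median member stood at 86.0 CPM. Per kilobase of transcript, known for 82 members and not for Rps4y2 or Rps3a2, the order differed. Rplp1, an acidic stalk protein that helps recruit elongation factors, led at 373 CPM per kb and Rpl7l1, named for its likeness to Rpl7, was the lowest of these 82 at 13.4 CPM per kb, with a median at 114 CPM per kb.

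Summed over the 84 members, the 5 vehicle libraries stood at 7302, 7431, 7540, 7297 and 7754 CPM. The weekly libraries stood at 5675, 6476, 6733, 9916 and 7031 CPM, and the daily libraries at 5578, 5726, 3580, 5541 and 5204 CPM. Every daily library lay below every vehicle library. The weekly libraries lay below all vehicle libraries except weekly 4, which lay above all of them. With TMM scaling the vehicle libraries ranged from 7386 to 7905 CPM and the daily libraries stood at 5523, 5547, 5478, 5422 and 5466 CPM, so daily 3 was then level with its group. The weekly libraries stood at 5678, 6161, 5972, 8201 and 6000 CPM, again with weekly 4 alone above the vehicle range. The group means were 7626 ± 208 CPM for vehicle, 6402 ± 1020 CPM for weekly and 5487 ± 49.1 CPM for daily (SD, n = 5 each, TMM scaling), and the weekly mean without weekly 4 was 5953 ± 201 CPM (SD, n = 4).

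**Figure D1:**
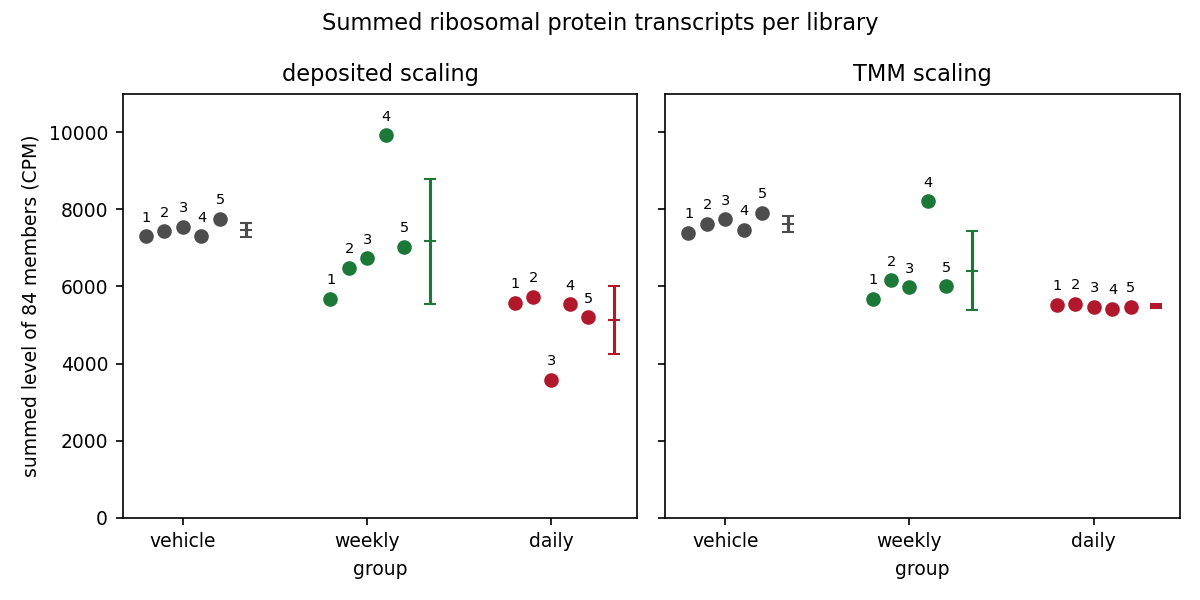
Summed level of the 84 members in CPM (y axis) per library (points, numbered by replicate) in the 3 groups, under the deposited scaling (left) and TMM scaling (right), with the group mean and SD beside the points. The daily libraries sit between 5422 and 5547 CPM with TMM scaling, below every vehicle library, and weekly 4 sits above the vehicle range in both panels.

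Daily prednisone against vehicle asks how the members stand when the drug is given every day. Ribosomal protein transcripts were lower across both subunits and the stalk. The median change of the 84 members was -0.59 on the log2 scale (quartiles -0.69 and -0.46), against -0.08 for all 14059 genes tested, and with TMM scaling it was -0.51 against 0.00. By limma's test with Benjamini-Hochberg (BH) adjustment, 43 of 84 members were called lower, while 2.13% of all genes tested were, and 0 were called higher (1.76% of all genes). With TMM scaling 57 were called lower (3.48% of all genes), including all of the 43, and 0 higher (5.59% of all genes). At an unadjusted p under 0.05 limma put 73 members lower and 0 higher under the deposited scaling, and 73 lower and 1 higher with TMM scaling. EdgeR's quasi-likelihood test called 60 lower and DESeq2 67 lower, both with 0 higher; the shares of all genes called by these tests are not given here. The daily libraries lay wholly below the vehicle libraries for 76 members (90.5%), against 8.82% of all genes, and for 77 (91.7%) with TMM scaling, against 9.61% of all genes. When the 5 vehicle libraries, which lie closer together than the others, were averaged to 1 sample, limma called 0 members in this comparison and 15 had an unadjusted p under 0.05. In bulk tissue, fewer cells rich in these transcripts and less of them per cell cannot be told apart.

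**Figure D2:**
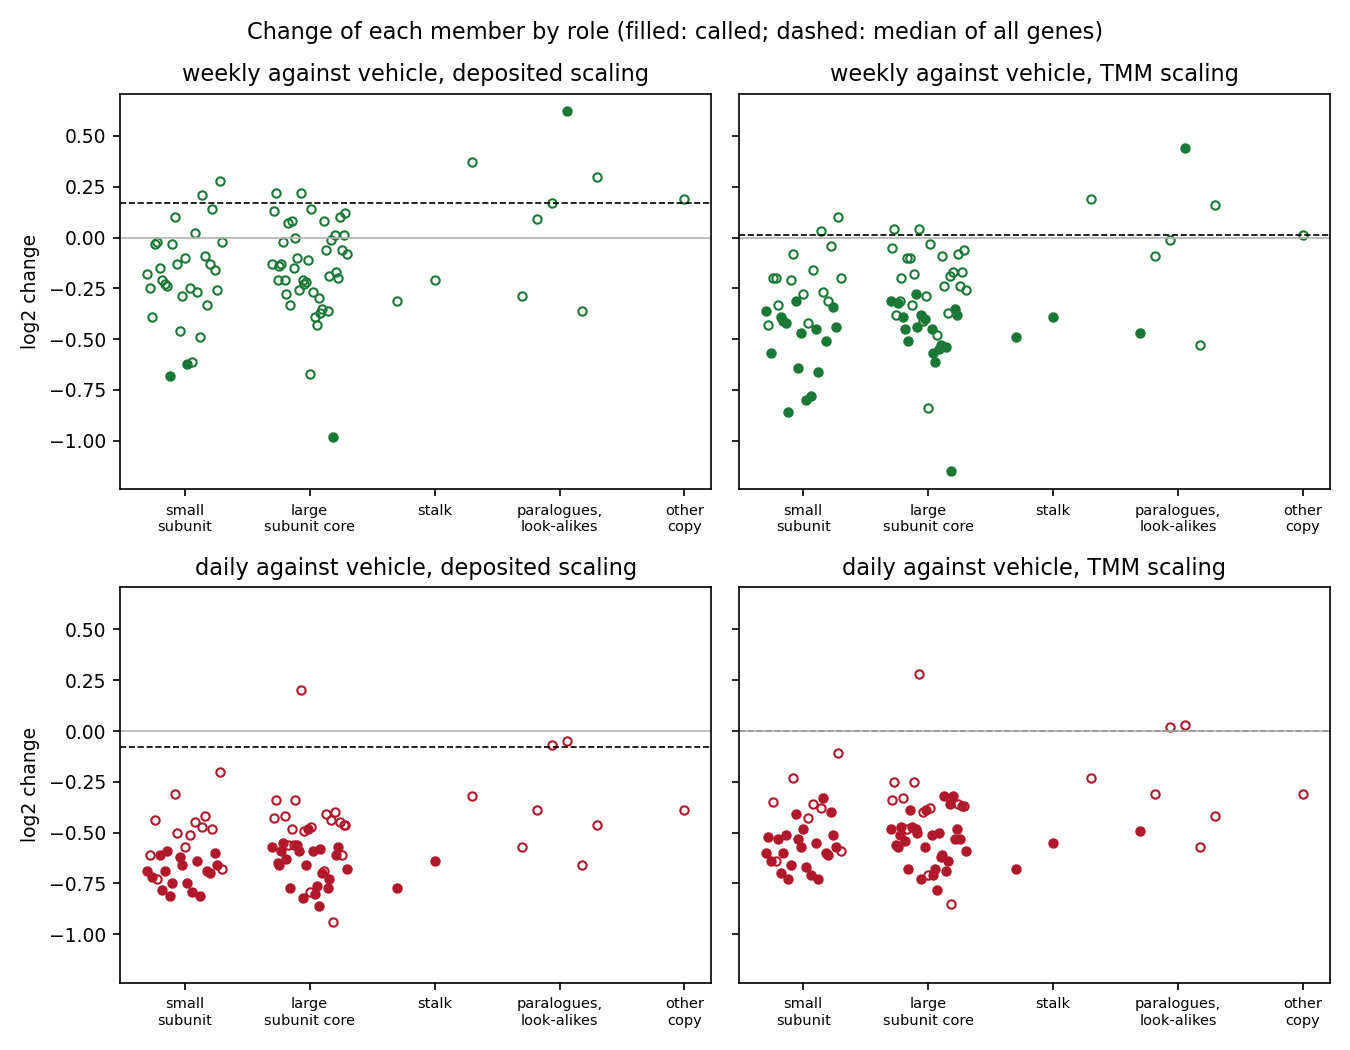
Log2 change against vehicle (y axis) of each member (points) by role (x axis), for weekly (top) and daily (bottom), under the deposited scaling (left) and TMM scaling (right); filled points passed limma's BH-adjusted threshold of 0.05 and the dashed line is the median of all genes. In daily nearly all points lie below the dashed line, with medians of -0.59 (deposited) and -0.51 (TMM).

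The small subunit contributed 18 called members of 31 (23 with TMM scaling), with a median change of -0.64. Rps18, a protein of the head of the small subunit, stood at 38.8, 45.2, 44.4, 47.2 and 53.9 CPM in vehicle and at 27.6, 32.5, 20.4, 22.4 and 27.6 CPM in daily. The groups did not overlap, and the change was -0.81 ± 0.15 on the log2 scale (SE, limma BH-adjusted p = 0.00231). Rps27, a zinc-finger protein, stood between 18.4 and 19.9 CPM in every vehicle library and at 11.5, 12.5, 6.51, 14.4 and 10.7 CPM in daily. Its change was -0.79 ± 0.21 (limma BH-adjusted p = 0.0327). Rps15a, Rps25 and Rps29 fell by similar amounts, by 0.78, 0.75 and 0.81 on the log2 scale. Rps19, whose loss in humans causes Diamond-Blackfan anaemia, fell by 0.75 (limma BH-adjusted p = 0.0322). Rps6, the substrate of the S6 kinases downstream of mTOR, stood at 125, 121, 122, 107 and 118 CPM in vehicle and at 97.4, 88.4, 55.9, 92.9 and 96.0 CPM in daily. Its groups did not overlap, but its change of -0.48 under the deposited scaling did not pass the limma BH threshold (adjusted p = 0.114). With TMM scaling the change of Rps6 was -0.40 and passed it (limma BH-adjusted p = 0.0214). Rps3, Rps14, Rps27a and Rpsa had changes of -0.47, -0.73, -0.45 and -0.68 and were not called under either scaling. For each of them, all daily libraries nevertheless lay below all vehicle libraries.

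The large subunit core contributed 23 called members of 43 (31 with TMM scaling), with a median change of -0.58. Rpl26 stood between 81.9 and 91.3 CPM in vehicle and at 56.1, 53.5, 34.1, 47.7 and 54.6 CPM in daily. All daily values were below all vehicle values, and the change was -0.82 ± 0.15 (limma BH-adjusted p = 0.00271). Rpl34 had the largest called change, -0.86 ± 0.20 (limma BH-adjusted p = 0.0134), and Rpl31 and Rpl37 fell by 0.80 and 0.77. Rpl5, which with Rpl11 carries 5S ribosomal RNA and can bind Mdm2, fell from 155 to 173 CPM in vehicle to 75.7 to 130 CPM in daily, a change of -0.57 (limma BH-adjusted p = 0.0205). Its partner Rpl11 changed by -0.34 and was not called under either scaling. All daily libraries of Rpl11 (32.8 to 54.2 CPM) lay below all its vehicle libraries (55.7 to 64.2 CPM). Rpl10, Rpl13a, Rpl9 and Rpl41, which is among the smallest proteins of the cell, were also called lower, with changes between -0.57 and -0.68. Rpl4 changed by -0.40 and was not called under the deposited scaling. With TMM scaling its change was -0.32 and passed the threshold (limma BH-adjusted p = 0.0282). Rpl39, a short protein of the exit tunnel, had the lowest estimate at -0.94 ± 0.28 but was not called (limma BH-adjusted p = 0.0700). Its vehicle libraries stood at 54.0, 52.2, 56.8, 50.1 and 54.4 CPM and its daily libraries at 28.5, 33.7, 16.1, 33.1 and 31.7 CPM, without overlap.

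Of the stalk proteins, 2 of 3 were called. Rplp0, which anchors the stalk to the large subunit and is often used as a reference gene for quantitative PCR, stood at 120, 117, 121, 124 and 122 CPM in vehicle and at 83.2, 76.9, 48.0, 77.0 and 74.8 CPM in daily. The highest daily library lay far below the lowest vehicle library, and the change was -0.77 ± 0.15 (limma BH-adjusted p = 0.00360; -0.68 ± 0.08 with TMM scaling). Rplp1 fell by 0.64 (limma BH-adjusted p = 0.0231). Rplp2 changed by -0.32 and was not called under either scaling, though all daily libraries (54.2 to 96.5 CPM) lay below all vehicle libraries (98.0 to 107 CPM).

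Of the 84 members, 8 overlapped between vehicle and daily under the deposited scaling: Rpl24, Rpl36a, Rpl36al, Rpl3l, Rpl7l1, Rps2, Rps4y2 and Rps9. Rpl24, which forms a bridge between the subunits, stood at 23.4, 22.9, 24.4, 25.3 and 24.3 CPM in vehicle, at 27.6, 28.7, 31.1, 20.5 and 34.4 CPM in weekly and at 30.3, 31.1, 18.1, 31.0 and 30.6 CPM in daily. In both treated groups it was above the vehicle range in all libraries except weekly 4 and daily 3. With TMM scaling daily 3 came to 27.7 CPM and every daily library lay above every vehicle library. The change in daily was 0.20 ± 0.16 (limma BH-adjusted p = 0.586; 0.28 and adjusted p = 0.172 with TMM scaling), and it was called higher when weekly 4 and daily 3 were both left out. Rpl24, Rps2 and Rps9 lie outside the rule for named genes and were named after their values were seen. Rps9 changed by -0.20 in daily and was not called.

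**Figure D3:**
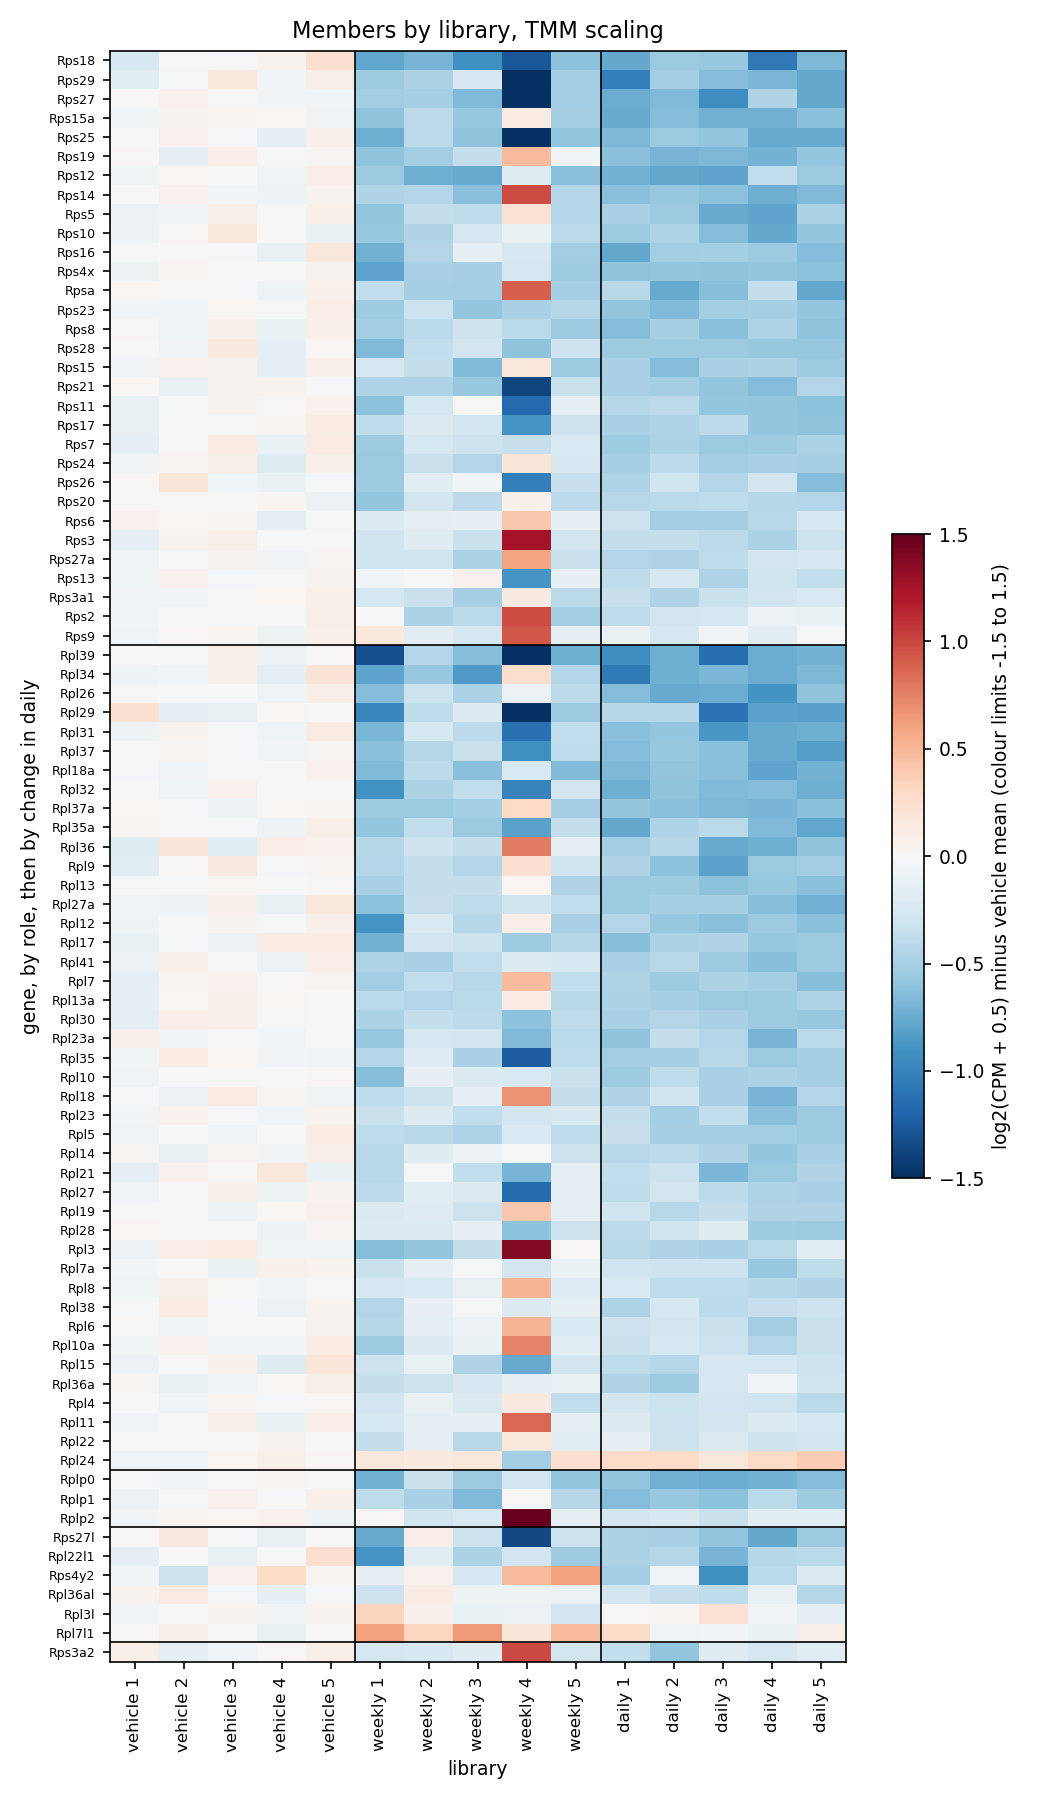
Level of each of the 84 members (rows, by role and then by change in daily) in each of the 15 libraries (columns), as log2(CPM + 0.5) with TMM scaling minus the vehicle mean; blue is lower and red higher, and colours saturate at -1.5 and 1.5. The daily columns are blue almost throughout and alike (median offsets -0.54 to -0.47), while the weekly 4 column mixes strong red and strong blue.

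Weekly prednisone against vehicle gave a smaller difference, which was also less even with all libraries in the fit. The median change of the members was -0.15 (quartiles -0.27 and 0.01), while that of all genes was 0.17. Limma with BH adjustment called 3 members lower (Rps18, Rps25 and Rpl39; 1.07% of all genes tested) and 1 higher (Rpl7l1; 6.99% of all genes). The count depended on the scaling. With TMM scaling the median was -0.33 against 0.01 for all genes, 37 members were called lower (4.18% of all genes), including all of the 3, and 1 higher (5.73% of all genes), again Rpl7l1. The weekly libraries lay wholly below vehicle for 11 members under the deposited scaling (1.66% of all genes) and for 36 with TMM scaling (4.42% of all genes). The library weekly 4 held much of the spread, since its members' offsets from the vehicle mean had quartiles of -0.33 and 0.57, against -0.58 and -0.30 in weekly 1 and -0.18 and 0.07 in weekly 5. Without weekly 4, 7 members were called lower, and 65 with TMM scaling. Without daily 3, which entered the shared estimate of spread, 13 were. The shares of all genes called in these fits are not given here. Without both libraries 39 members were called lower under the deposited scaling, and the share of all genes rose from 1.07% to 3.63%. In that fit the members' median change was -0.24 in weekly and -0.48 in daily, against 0.15 and 0.04 for all genes. The SD across members was 0.19 in both, so the less even difference in weekly was not seen there. With the vehicle libraries averaged to 1 sample limma called 0 members here, and 1 had an unadjusted p under 0.05.

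Rps18 stood at 27.0, 30.1, 27.6, 23.0 and 35.3 CPM in the weekly libraries, all below the vehicle range given above. Its change was -0.68 ± 0.15 (limma BH-adjusted p = 0.00732). Rps25, which in other cells is needed for some cap-independent translation, stood between 82.7 and 96.6 CPM in vehicle and at 55.5, 74.5, 69.0, 34.5 and 72.4 CPM in weekly. The groups did not overlap and weekly 4 was the lowest, with a change of -0.62 ± 0.18 (limma BH-adjusted p = 0.0328). Rpl39 stood at 21.6, 42.3, 39.3, 10.1 and 38.4 CPM in weekly, and its change was -0.98 ± 0.28 (limma BH-adjusted p = 0.0360). Rps18, Rps25 and Rpl39 were called lower in 31, 26 and 24 of the 32 alternative settings. Their changes ran from -0.86 to -0.61, from -0.81 to -0.41 and from -1.16 to -0.52 over these settings. Under the deposited scaling without weekly 4, no member had a change below -0.63, so the size of the fall of Rpl39 depended on that library.

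Rpl7l1, whose yeast relative acts in assembly of the large subunit rather than in the finished ribosome, was the only member called higher in weekly under the deposited and TMM scaling of all libraries, where 62 of the 84 members had a negative change under the deposited scaling. It stood at 18.0, 18.6, 17.5, 16.3 and 17.6 CPM in vehicle, at 27.6, 23.6, 31.8, 24.8 and 29.4 CPM in weekly and at 22.2, 17.7, 11.5, 17.2 and 18.2 CPM in daily. All weekly libraries were above all vehicle libraries, and the vehicle and daily values overlapped. The change in weekly was 0.62 ± 0.16 (limma BH-adjusted p = 0.0175), and 0.44 with TMM scaling (adjusted p = 0.0129).

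Weekly 4 was high or low depending on the member. Rplp2 stood at 386 CPM in weekly 4, while the other weekly libraries ran from 89.9 to 113 CPM. Rps3, which lies at the mRNA entry site, stood at 303 CPM there, with 85.6 to 102 CPM elsewhere in the group. Rpl3, a core protein near the peptidyl transferase centre, reached 247 CPM there, with 49.9 to 92.7 CPM elsewhere in the group. In the opposite direction, Rps27 was down to 6.83 CPM in weekly 4, below the 13.3 to 15.9 CPM of its group. These members were not called in weekly under the deposited scaling. The part of that library's high fibroblast and macrophage markers in its member values was not tested.

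Daily against weekly asks whether the schedules differ. The median change was -0.43 for members and -0.24 for all genes, and limma with BH adjustment called 15 members lower (8.24% of all genes) and 0 higher (0.484% of all genes; 0 members at an unadjusted p under 0.05). With TMM scaling the median was -0.17 against 0.01, and 2 members were called lower (2.65% of all genes) and 0 higher (2.06% of all genes; 0 members at an unadjusted p under 0.05). EdgeR called 2 lower and DESeq2 7, with 0 higher in both, and the shares of all genes called by these tests are not given here. The groups were apart, with daily lower, for 11 members under the deposited scaling (6.98% of all genes) and 7 with TMM scaling (2.53% of all genes). Rpl26 and Rpl7l1 were called under both scalings, with changes of -0.61 and -0.67 (limma BH-adjusted p = 0.0189 and 0.0124) and -0.35 and -0.41 with TMM scaling. Both comparisons with vehicle share the same vehicle libraries, so their agreement is not a result, and the other 13 calls between the schedules were not made with TMM scaling of all libraries. With TMM scaling and weekly 4 left out 11 members were called lower, and the share of all genes in that fit is not given here.

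The ratio of a pair of related members within a library cannot be moved by library scaling. Of 5 pairs, tested in 3 comparisons each with an exact two-sided permutation test over libraries, 0 passed BH adjustment over the 15 tests; 4 had an unadjusted p under 0.05. The smallest p that 5 against 5 allows is 0.00794. Rplp1 to Rplp2 reached it in both comparisons with vehicle: the mean log2 ratio was 0.85 ± 0.09 in vehicle, 0.27 ± 0.56 in weekly and 0.53 ± 0.05 in daily (SD, n = 5 each), and neither treated group overlapped vehicle (exact permutation p = 0.00794, BH-adjusted p = 0.0595 for each). Rpl3l, a paralogue of Rpl3 found in striated muscle, stood at 126, 126, 133, 125 and 135 CPM in vehicle and at 135, 141, 99.9, 130 and 113 CPM in daily. The Rpl3l values of these groups overlapped, whereas Rpl3 stood at 72.6, 81.4, 82.2, 73.3 and 73.1 CPM in vehicle and at 59.0, 59.0, 36.4, 60.1 and 66.0 CPM in daily. The log2 ratio of Rpl3l to Rpl3 was 0.75 ± 0.09 in vehicle and 1.15 ± 0.25 in daily (exact permutation p = 0.0238, BH-adjusted p = 0.119), and in weekly it ran from -0.71 to 1.72. Rpl22l1 to Rpl22 was -1.12 ± 0.15 in vehicle and -1.36 ± 0.16 in daily (exact permutation p = 0.0317, BH-adjusted p = 0.119). The ratios Rps27l to Rps27 and Rpl36al to Rpl36a differed from vehicle by 0.13 and 0.01 in daily and by 0.25 and 0.14 in weekly, with exact permutation p-values of 0.111 or more.

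**Figure D4:**
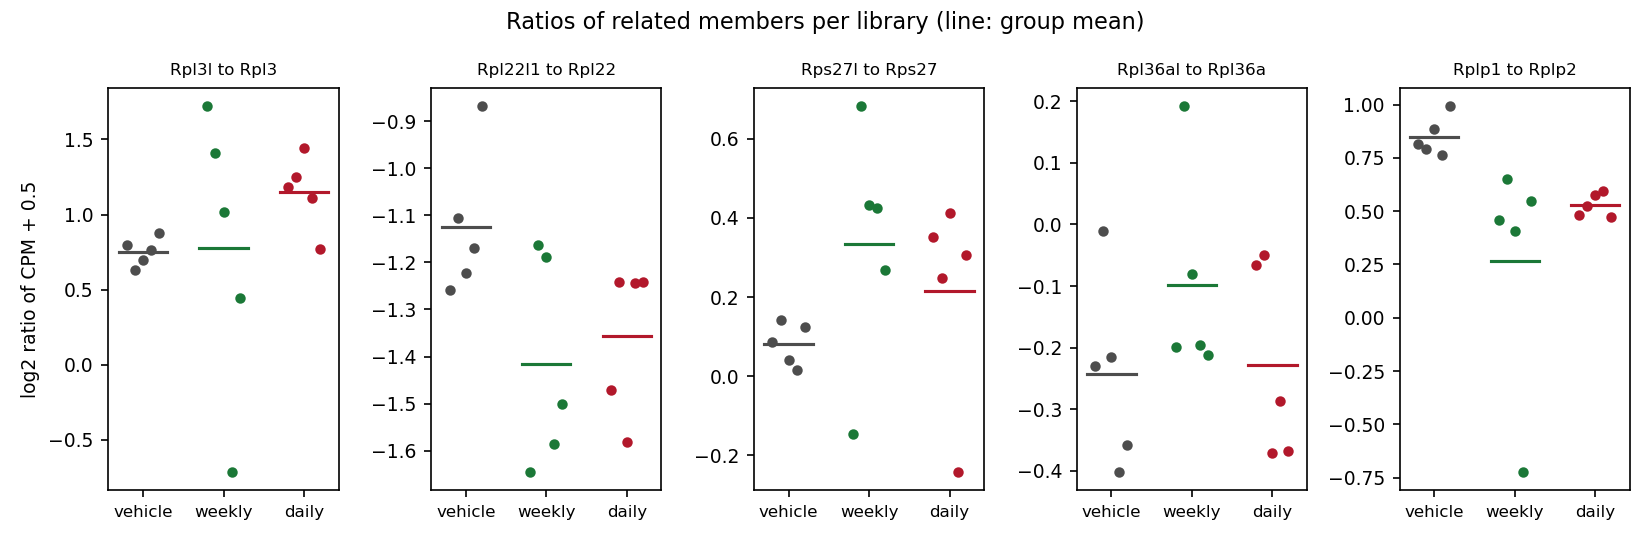
Log2 ratio of CPM + 0.5 (y axis, a separate scale per panel) of 5 pairs of related members in each library (points) of the 3 groups, with the group mean as a line. Rplp1 to Rplp2 lies at 0.76 to 0.99 in vehicle, above all weekly and daily libraries.

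The members are short transcripts, with a median of 705 nt against 2875 nt for all genes tested, using the principal transcript of GENCODE M21 (82 members with a length). Among members under 600 nt (n = 31) the median change in daily was -0.57 with TMM scaling, against -0.18 for 161 other genes of that length. For 600 to under 1000 nt it was -0.48 (n = 32) against -0.10 (n = 610), and for 1000 to under 2000 nt -0.48 (n = 17) against -0.03 (n = 2730). In weekly the members' medians over the same lengths were -0.44, -0.31 and -0.24, and those of other genes were -0.03, 0.03 and 0.05. The members' median lay below that of other genes of like length in each of these classes. Across the 82 members, change and log2 length had a Pearson r of 0.24 and a Spearman rho of 0.29 in daily and of 0.29 and 0.32 in weekly with TMM scaling, as a description across genes that share libraries. Without weekly 4 and daily 3, under the deposited scaling, they were 0.22 and 0.26 in daily and 0.15 and 0.15 in weekly. Whether length itself plays a part was not tested.

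**Figure D5:**
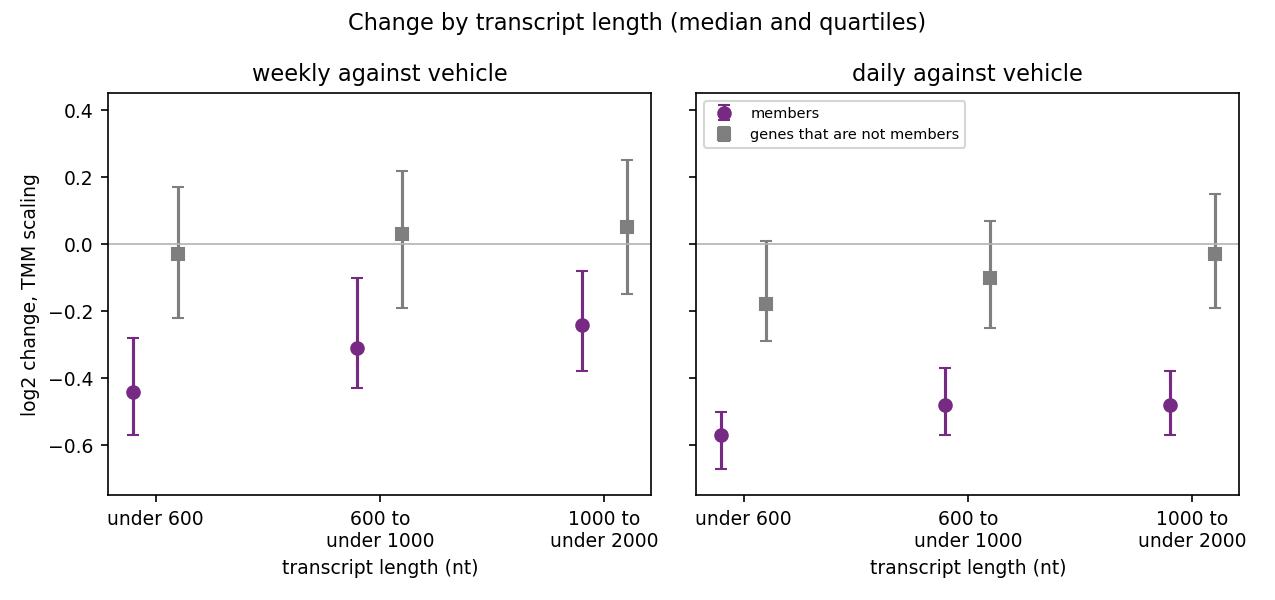
Median log2 change with TMM scaling (y axis; bars are quartiles) against vehicle for members (circles) and for other genes (squares) in 3 classes of transcript length in nt (x axis), weekly at left and daily at right. Members lie below other genes of the same length class in both panels, at -0.57 against -0.18 for the shortest class in daily.

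Other genes of the pathway did not share one direction. Ribosomal proteins with other names include Fau, which is made as a fusion with a ubiquitin-like sequence, and Rack1 (listed as Gnb2l1). Rack1, a scaffold on the small subunit, fell in daily by 0.66 (limma BH-adjusted p = 0.0170), while Fau changed by -0.51 and was not called under the deposited scaling. With TMM scaling Fau was also called lower. Of 18 translation elongation factors and other mRNAs with a TOP motif, 1 fell in daily (Eif3f, a subunit of initiation factor eIF3, by 0.58; limma BH-adjusted p = 0.0196) and 0 rose (limma; 5 fell and 0 rose with TMM scaling, and 7 fell and 0 rose without weekly 4 and daily 3), with a median of -0.26 against -0.08 for all genes. Tpt1, an abundant TOP mRNA, stood at 814 ± 14 CPM in vehicle, 633 ± 62.5 CPM in weekly and 593 ± 102 CPM in daily (SD, n = 5 each) and was called lower in both treated groups with TMM scaling but not under the deposited scaling of all libraries.

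Ribosome assembly factors called against vehicle were higher. Of 45 ribosome biogenesis genes, 11 rose in weekly and 0 fell under both scalings, against 6.99% of all genes called higher (5.73% with TMM scaling), with a median of 0.45 against 0.17 for all genes (0.27 against 0.01 with TMM scaling). In daily 2 rose and 0 fell, against 1.76% of all genes called higher (6 and 0 with TMM scaling, against 5.59%). The median of the 45 genes in daily was close to that of all genes, at -0.05 against -0.08 (0.04 against 0.00 with TMM scaling). Without weekly 4 and daily 3, 28 rose in weekly (20.3% of all genes) and 9 in daily (11% of all genes), and 0 fell in either. In daily against weekly 0 rose and 8 fell under the deposited scaling (8.24% of all genes called lower), and 2 fell with TMM scaling, Ddx21 and Nop16. Myc, a transcription factor that drives ribosome biogenesis, rose from 5.16 ± 0.801 CPM in vehicle to 19.4 ± 7.94 CPM in weekly and 13.2 ± 3.44 CPM in daily (SD, n = 5 each; log2 changes 1.72 and 1.25; limma BH-adjusted p = 0.000190 and 0.00494). Nop56, part of the particles that methylate ribosomal RNA, rose by 0.84 and 0.60 on the log2 scale (limma BH-adjusted p = 0.00230 and 0.0368). Of 7 small nucleolar RNA host transcripts with a row, Gas5, Snhg5 and Snhg12 rose in weekly and Snhg5 in daily. With TMM scaling Gas5 and Snhg5 rose in weekly, and Gas5, Snhg1 and Snhg5 in daily. Without weekly 4 and daily 3, 3 rose in weekly and 4 in daily. The shares of all genes called higher in these settings are those given above for the biogenesis genes. Snhg12 was called higher in weekly in 10 of the 32 alternative settings. Gas5 also begins with a TOP motif, and stood at 15 ± 0.897 CPM in vehicle, 28.5 ± 6.55 CPM in weekly and 22.5 ± 4.28 CPM in daily (SD, n = 5 each), higher in treated muscle where the members were lower.

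Among 18 genes that control translation of ribosomal protein mRNAs, Ddit4 was the only one called under the deposited scaling in either comparison with vehicle. Of all genes, 6.99% were called higher in weekly and 1.76% in daily. Ddit4, an inhibitor of mTOR complex 1 and a known glucocorticoid target, stood at 3.90 ± 0.515 CPM in vehicle, 24.8 ± 34.8 CPM in weekly and 41.5 ± 4.75 CPM in daily (SD, n = 5 each). Its changes were 1.78 in weekly and 3.26 in daily (limma BH-adjusted p = 0.00994 and 5.1e-05). The weekly values ran from 7.42 to 87.0 CPM, and without weekly 4 the weekly change of Ddit4 was 1.15 (limma BH-adjusted p = 2.11e-06). With TMM scaling Sesn1 was also called higher in daily. Without weekly 4 and daily 3, 3 of the 18 were higher in weekly (20.3% of all genes) and 2 in daily (11% of all genes). In daily against weekly, Ddit4 was called higher (0.484% of all genes) and Mtor and Eif4ebp1 lower (8.24% of all genes). The changes of Mtor and Eif4ebp1 were -0.53 and -0.65 (limma BH-adjusted p = 0.0285 and 0.0250). Neither was called with TMM scaling of all libraries, where Ddit4 and Sesn1 were called higher (2.06% of all genes).

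Markers of other cell types also differed between the groups, and most of these counts depended on weekly 4 and daily 3. Without both libraries limma called more genes in general, 20.3% of all genes higher and 3.63% lower in weekly and 11% higher and 6.36% lower in daily, each against vehicle. Of 13 adipocyte markers, 8 rose in weekly (4 with TMM scaling, 13 without both libraries) and 5 fell in daily (5 with TMM scaling, 6 without both). Their summed level was 545 to 579 CPM in vehicle, with a weekly range of 584 to 3390 CPM and a daily range of 165 to 393 CPM. Of 3 erythroid markers with a row, Hba-a1 and Hbb-bs fell in daily in each of these settings, and in weekly with TMM scaling or without both libraries. Their sum was 79.1 to 84.8 CPM in vehicle, with a weekly range of 43.5 to 78.3 CPM and a daily range of 23.4 to 45.1 CPM.

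Of 16 macrophage markers, 2 rose and 0 fell in weekly and 1 rose and 0 fell in daily. Without both libraries 3 rose and 5 fell in weekly, and 5 rose and 3 fell in daily. Their summed level had a median of 542 CPM in vehicle, 571 CPM in weekly and 565 CPM in daily, with 3520 CPM in weekly 4. Of 11 fibroblast and matrix markers, 1 rose in weekly (Col1a1) and 0 in daily. With TMM scaling 0 rose in either comparison with vehicle, and Dcn fell in weekly. Without both libraries 3 rose and 1 fell in weekly, and 4 rose and 2 fell in daily. Of 7 smooth muscle and pericyte markers, Acta2, Cspg4 and Myh11 rose in weekly and Rgs5 fell in daily. With TMM scaling or without both libraries Rgs5 was also called lower in weekly. Of 10 endothelial markers 0 were called against vehicle (6 rose in weekly and 2 in daily without both libraries), and 5 fell in daily against weekly (2 with TMM scaling). Of 11 regenerating muscle markers, Myod1 rose in weekly and 0 were called in daily (3 and 4 rose without both libraries). Of 8 Schwann cell markers, S100b rose in weekly and 0 were called in daily, where 3 rose with TMM scaling. None of 15 myofibre markers was called in either comparison with vehicle under the deposited scaling or TMM scaling of all libraries, and their median in daily was -0.25 against -0.08 for all genes; without both libraries Dmd and Mylpf were called in daily, 1 higher and 1 lower. The 8 lymphocyte markers had no row under their symbols and could not be analysed. The part of these cell types in the members' levels was not tested.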

How the data were processed

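Per the labels' protocols, RNA came from about 30 mg of quadriceps and libraries from a TruSeq stranded kit for total RNA. Per the submitters' processing notes, the tools were TopHat2 2.1.0, HTSeq and edgeR, and the build was mm10 (GRCm38). The authors deposited 1 table for all 15 libraries. The labels name its unit RPKM, but its values behave as CPM: all 222090 of 222090 deposited values are whole multiples of 1 read's worth in their library, within 0.01 reads, whatever the gene. The count tests used reads recovered in this way. Features without a gene name (534 of 14806, 0.276% to 0.447% of a library) were left out, and 9 columns were empty. Ribosomal protein genes have many near-identical processed copies, and no source used here states the counting's strand setting, which leaves their levels uncertain to that extent.

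Values were tested as log2(CPM + 0.5), a scale that understates changes of low genes, with limma 3.58.1 in R 4.3.3 with a mean-variance trend, in a single fit of 15 libraries on group alone. A minimum of 1 CPM in 5 or more libraries left 14059 genes, and p-values were adjusted over all of them (BH, threshold 0.05). TMM scaling came from edgeR 4.0.16, and the alternative count tests on recovered reads used edgeR and DESeq2 1.42.0. The fit was tested on simulated data.

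Members and gene lists were chosen with earlier results of these data known. Named genes were the 8 largest called rises and falls per comparison, 29 set genes, the 2 smallest p-values of each pathway list per comparison, and the highest and lowest member; other genes were named after their values were seen. Symbols of 8 listed genes were replaced by older ones of the table through RefSeq synonyms. Positions and lengths come from GENCODE M21, using the shortest of the best-ranked principal transcripts. The replicate numbers did not pair the libraries. One item is not reported here.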

Additional observations from a re-analysis of the deposited data

Results flagged for a closer look

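Of 135 sets of 5 libraries examined (the members' sums, the ratios and the named members), 31 held a library whose gap to its nearest neighbour exceeded Dixon's critical share of the range, 0.71. Chance gives about 1 in 20. Most fell on the libraries that stand apart, weekly 4 (16 of 31) and daily 3 (12 of 31).

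In weekly 4, the summed TMM-scaled level of the members was 8201 CPM and the log2 ratio of Rplp1 to Rplp2 was -0.72. Members that stood high there were Rpl11 (136 CPM), Rpl13a (152 CPM), Rpl18 (151 CPM), Rpl3 (247 CPM), Rpl36 (81.6 CPM), Rpl8 (218 CPM), Rplp2 (386 CPM), Rps14 (257 CPM), Rps15a (89.9 CPM), Rps27a (170.0 CPM), Rps3 (303 CPM), Rps6 (193 CPM) and Rpsa (251 CPM), while Rps27 stood low (6.83 CPM).

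In daily 3, the summed level was 3580 CPM under the deposited scaling. Members that stood low there were Rpl11 (32.8 CPM), Rpl13a (51.4 CPM), Rpl22l1 (10.2 CPM), Rpl3 (36.4 CPM), Rpl9 (42.6 CPM), Rplp0 (48.0 CPM), Rplp2 (54.2 CPM), Rps15a (27.1 CPM), Rps19 (35.6 CPM), Rps3 (52.4 CPM) and Rps6 (55.9 CPM). With TMM scaling the sum in daily 3 was 5478 CPM, inside the range of the other daily libraries.

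In weekly 1, Rpl10 stood low at 107 CPM and Rpl36al at 22.2 CPM. In daily 4, the log2 ratio of Rps27l to Rps27 was low at -0.24.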

How the results depend on the processing

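Counts of called members depended on scaling and on single libraries, and the cause was not tested. In daily against vehicle, 43 members were called lower; DESeq2 gave 67, a fit of only these groups 72, array weights 78, TMM scaling without weekly 4 gave 78, and leaving out weekly 4 and daily 3 together gave 72, or 78 with TMM scaling, which was added after seeing the data. Array weights and each fit that left out weekly 4 with TMM scaling, or both libraries, called 1 higher, Rpl24. In weekly against vehicle, 3 were called lower; the count was 37 with TMM, 38 with DESeq2 size factors, 23 with totals free of mitochondrial genes, Gm26924 and Lars2, 36 by edgeR, 40 by DESeq2, 39 with array weights, 65 with TMM without weekly 4, 36 with TMM without daily 3, 39 without both and 66 with TMM without both. Higher calls there numbered 3 with array weights and 2 without both libraries. In daily against weekly, 15 were called lower; the count was 2 with TMM, 2 with size factors, 2 by edgeR, 7 by DESeq2, 57 with array weights, 24 without both libraries, 11 with TMM without weekly 4, 8 with TMM without both, and 0 with the reduced totals, with only these groups, or with TMM without daily 3. With the vehicle libraries averaged to 1 sample 0 were called in each comparison. Shares of all genes called are given above for the deposited and TMM scaling of all libraries. Against vehicle they are also given for the deposited scaling without both libraries. For the other fits, here and in the next paragraph, they are not given, so those counts cannot be set against all genes.

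Leaving out 1 library at a time gave 25 (without vehicle 5) to 72 (without weekly 4) lower calls in daily against vehicle, 1 (without any vehicle library) to 13 (without daily 3) lower and 0 to 1 higher in weekly against vehicle, and 1 (without weekly 5) to 41 (without weekly 1) in daily against weekly. The paralogue ratios past the BH threshold numbered 0 to 2 in each comparison with vehicle. The replicate numbers do not pair the libraries (correlations of same-numbered deviations from -0.0343 to 0.145); with the replicate block the counts called lower were 39, 3 and 9 in daily against vehicle, weekly against vehicle and daily against weekly, and 0 ratios passed.

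In weekly against vehicle, genes whose estimate turned negative and called without weekly 4 under TMM scaling, with or without daily 3, were Fau (-0.24), Rpl18 (-0.30), Rpl3 (-0.39), Rpl36 (-0.31), Rpl4 (-0.25), Rpl8 (-0.20), Rps27a (-0.35) and Rps3 (-0.28). Rps27a was also -0.22 with array weights and -0.20 without both libraries. The filter on low values and the pseudocount left each count of called members within 1.5 times its value. Depth limits Rps4y2, whose lowest value in daily, 0.465 CPM, equals the level of 3 reads in daily 3.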
